A study of Homo sapiens with 9 samples.

Results

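The 35 genes described here serve glucose uptake, glycolysis, lactate handling and the transcriptional response to low oxygen. They were taken by name: a gene belongs to the set where the symbol of its row in the value table is one of the 35 listed symbols, and all 35 were found among 30580 named genes (34687 rows). By role they fall into 2 genes of glucose entry, 15 glycolytic enzymes, 3 genes of lactate formation and export, 4 kinases that control flux, 8 hypoxia-inducible effectors and 3 genes of oxygen sensing.

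Transcripts were measured on 9 Illumina arrays with total RNA of HCC4006, an established human lung adenocarcinoma line with a mutant epidermal growth factor receptor (EGFR). Parental cells (3 arrays) are the unselected line. Resistant cells (3 arrays) had been grown for 6 months in rising concentrations of gefitinib, which inhibits the EGFR kinase. Inhibitor cells (3 arrays) had received gefitinib for 6 months and SB431542, an inhibitor of the TGFβ receptor; the sample labels call them resistant and inhibitor treated, while the design gives the compounds as a combination. None of the groups had SB431542 alone or an equal time in culture without gefitinib, so effects of either compound, of selection and of time cannot be told apart. Whether the compounds were present at harvest, and whether the arrays of a group came from separate cultures, is not given in the sources used here. What the p-values weigh is thus the variation among arrays, and this may be only technical.

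Glycolysis splits glucose into pyruvate in the cytosol, and lactate dehydrogenase can turn the pyruvate into lactate, which monocarboxylate carriers export. Hypoxia-inducible factor (HIF) consists of an oxygen-regulated alpha subunit, such as HIF1A, and a constant beta subunit. In the presence of oxygen the EGLN prolyl hydroxylases mark the alpha subunit for destruction through VHL, and when oxygen is short the factor binds the promoters of many glycolytic genes and of genes for vessel growth, acid balance and mitophagy. HIF1A is governed mainly through the stability of its protein, which a transcript level does not show. In lung adenocarcinoma, EGFR signalling is known to raise glucose uptake and glycolysis.

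The deposited values are intensities on a linear scale, already quantile-normalized, with array medians of 91.1 to 91.3. The 95th percentile of 262 olfactory receptor rows, 90.4, served as a stand-in for background. The mean of each of the 35 genes over the 9 arrays was above it, and 34 were above it in every group; the exception was SLC2A3, in parental cells. Background remained in the intensities, so fold changes of dim genes are understated. Correlations within a group were 0.996 to 0.998, but at most 0.991 for inhibitor replicate 2. Of the 35 genes, 7 lay at least 0.5 log2 units from the rest of the inhibitor group in that array, against 2 in each of the other inhibitor arrays, 1 in parental replicate 1 and 0 in the rest, so results that rest on it are given with and without it. Epithelial markers were above background in all groups (6 of 6), with a summed intensity of 14744 to 16542 on parental, 7221 to 7525 on resistant and 20707 to 26449 on inhibitor arrays; KRT8 (721, 1170 and 2025) and KRT18 (317, 474 and 789) were higher in resistant than in parental cells, unlike the other 4. Of 5 lung lineage markers, 3, 2 and 3 were above background in the parental, resistant and inhibitor group (SFTPB and SFTPC were not, in any), and the list summed to 2102 to 2424 on parental, 540 to 551 on resistant and 509 to 530 on inhibitor arrays. Of 5 leukocyte markers, CD14 and LYZ were above background, with a summed intensity of the list of 865 to 960 on parental, 523 to 560 on resistant and 507 to 554 on inhibitor arrays, while the defining markers PTPRC and CD3E stayed at background; the 4 endothelial markers summed to 341 to 367 on all arrays, near background.

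A gene was called higher or lower at an adjusted p under 0.05 in a limma fit across all genes, and each change is a log2 difference of group means, given ± SE; intensities are given array by array in the order of the replicate numbers, or as mean ± SD of the 3 arrays of a group. In resistant against parental cells, 5 of the 35 genes rose and 10 fell. Of all genes tested 20.5% passed (10.3% higher and 10.2% lower), and of the genes above background 37.2% passed. The set had 42.9%, with a median log2 change of -0.06. In inhibitor against resistant cells 7 rose and 5 fell. That is 34.3% of the set, where 17.6% of all genes (8.71% higher and 8.85% lower) and 32.0% of those above background were called. In inhibitor against parental cells 5 rose and 10 fell, again 42.9% of the set, beside 15.0% of all genes (7.15% higher and 7.82% lower) and 27.4% of those above background. Set against genes above background, the share called in the set was thus close in resistant against parental cells (42.9% beside 37.2%) and in inhibitor against resistant cells (34.3% beside 32.0%). In inhibitor against parental cells it was higher (42.9% beside 27.4%). The genes above background were not matched to the set for brightness: their cut of 90.4 lies near the array medians, and most of the 35 are far brighter. Whether this accounts for the difference was not tested. The 3 comparisons share their arrays in pairs, so their counts are not independent of each other.

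**Figure D1:**
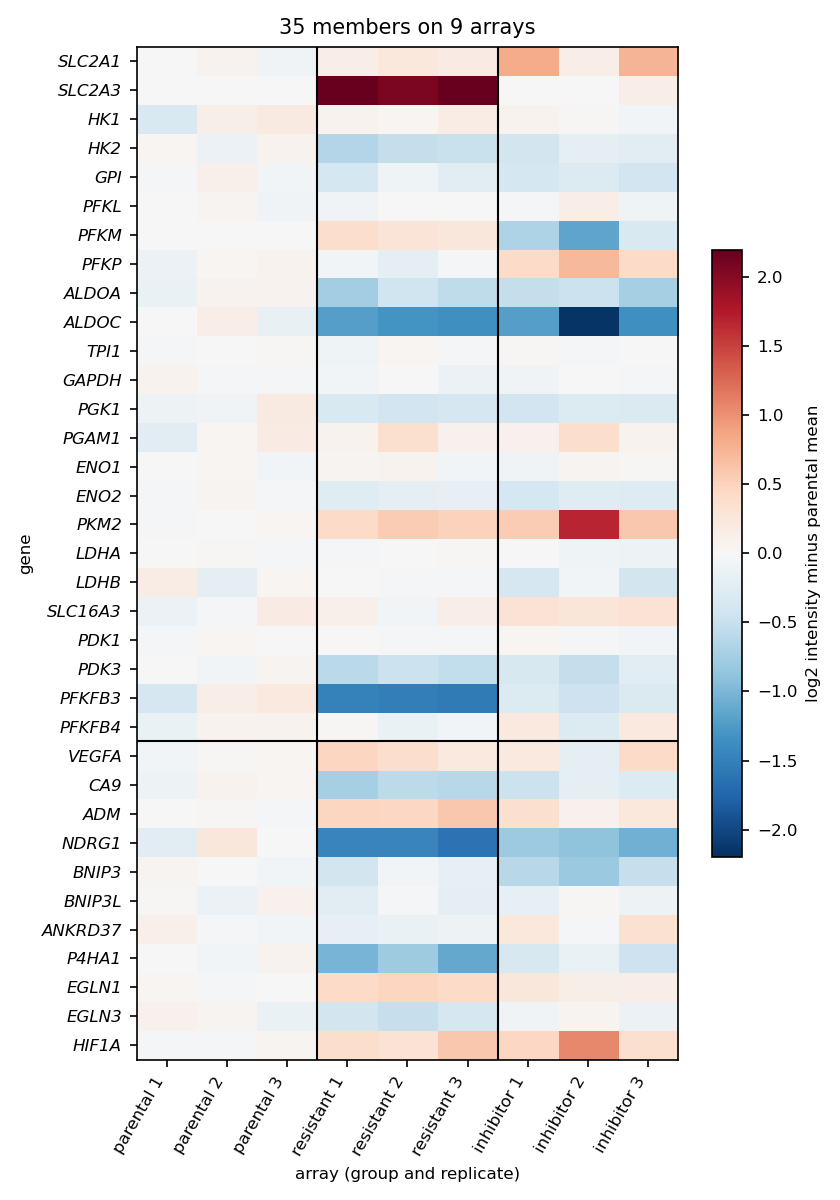
Each row is 1 of the 35 genes and each column 1 of the 9 arrays; the colour is the log2 intensity minus the gene's mean on the parental arrays, red for higher and blue for lower. The horizontal line separates genes of glucose use (top, 24) from hypoxia effectors and oxygen sensing (bottom, 11). SLC2A3 stands out on the resistant arrays, PFKFB3, NDRG1 and P4HA1 are lower there than on the inhibitor arrays, and PKM2, HIF1A and ALDOC differ on inhibitor replicate 2 from the other inhibitor arrays.

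The genes of glucose use and those of the hypoxia response are given apart. Of the 24 genes of glucose use, 1 rose and 6 fell in resistant against parental cells (29.2%), 2 rose and 2 fell in inhibitor against resistant cells (16.7%), and 4 rose and 7 fell in inhibitor against parental cells (45.8%). Of the 11 genes of the hypoxia response, 4 rose and 4 fell in the first comparison (72.7%), 5 rose and 3 fell in the second (72.7%), and 1 rose and 3 fell in the third (36.4%). Over all genes the shares called were 20.5%, 17.6% and 15.0%, and over genes above background 37.2%, 32.0% and 27.4%. Neither the 24 nor the 11 moved one way as a group. The median log2 change of the 11 was -0.16, 0.19 and -0.05, and that of the 24 was -0.03, 0.02 and -0.03, while the median over all genes was 0.00 in each.

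Promoter windows of 250 bases before the annotated start were taken from RefSeq (GRCh38.p14) for 31 of the 35 genes; VEGFA, SLC2A3, NDRG1 and BNIP3L were not used here. The core of the hypoxia response element was searched as ACGTG or GCGTG on both strands; a palindromic CACGTG counts on each strand. It was found in 34 of the 58 windows of these genes (58.6%) and in 43.2% of the 35116 windows of all genes. By gene, 26 of the 31 (83.9%) had a match in at least 1 window, beside 47.4% of all genes. Windows of 1 gene can overlap, and a gene with more windows has more chances of a match. The windows below belong to the 5 genes that have a single window and were called in resistant against parental cells with a log2 change of at least 0.5 in size, ADM upwards and the others downwards. They are shown so that genes of the response that moved in opposite directions can be compared by eye. The sequences read 5′ to 3′ towards the start of the gene and the capitals mark the core. They lie at chr9:35673678-35673927 (plus strand) for CA9, chr10:73096867-73097116 (minus strand) for P4HA1, chr11:10304823-10305072 (plus strand) for ADM, chr17:28576896-28577145 (minus strand) for ALDOC and chrX:24465036-24465285 (plus strand) for PDK3.
CA9: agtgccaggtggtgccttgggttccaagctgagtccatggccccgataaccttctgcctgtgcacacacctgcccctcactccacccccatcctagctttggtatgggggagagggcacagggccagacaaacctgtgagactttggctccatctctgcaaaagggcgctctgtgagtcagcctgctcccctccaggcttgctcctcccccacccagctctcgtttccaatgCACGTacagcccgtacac
P4HA1: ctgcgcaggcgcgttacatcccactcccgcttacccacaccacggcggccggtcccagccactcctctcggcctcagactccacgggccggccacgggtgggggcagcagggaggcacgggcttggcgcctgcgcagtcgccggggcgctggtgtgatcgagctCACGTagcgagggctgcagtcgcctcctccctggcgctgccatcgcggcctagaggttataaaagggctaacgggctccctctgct
ADM: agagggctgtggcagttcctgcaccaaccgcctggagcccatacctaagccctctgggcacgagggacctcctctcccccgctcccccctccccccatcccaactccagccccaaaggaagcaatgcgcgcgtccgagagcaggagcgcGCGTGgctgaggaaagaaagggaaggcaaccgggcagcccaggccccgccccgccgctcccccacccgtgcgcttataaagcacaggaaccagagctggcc
ALDOC: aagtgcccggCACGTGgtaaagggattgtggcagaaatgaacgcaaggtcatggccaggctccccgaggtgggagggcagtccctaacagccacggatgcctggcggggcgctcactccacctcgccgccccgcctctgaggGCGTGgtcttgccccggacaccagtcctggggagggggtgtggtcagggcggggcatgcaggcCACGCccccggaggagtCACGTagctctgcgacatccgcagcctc
PDK3: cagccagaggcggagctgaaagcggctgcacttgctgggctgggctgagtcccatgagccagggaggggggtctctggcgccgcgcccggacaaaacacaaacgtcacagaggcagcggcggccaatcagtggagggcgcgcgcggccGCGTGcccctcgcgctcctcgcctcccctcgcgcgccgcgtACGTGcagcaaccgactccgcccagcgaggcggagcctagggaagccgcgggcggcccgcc
CA9, P4HA1 and ADM hold 1 match each, beginning at positions -18, -86 and -101 from the start. ALDOC holds 5, of which 2 are the strands of 1 palindrome at -240, and PDK3 holds 2, at -102 and -61. ADM, which rose, and CA9 and P4HA1, which fell, thus have the same number of matches. A match describes these letters and does not show that a factor binds there.

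Glucose enters cells through facilitative transporters, of which SLC2A1 is the widespread form and SLC2A3 a form of high affinity. SLC2A3 stood well above background on the resistant arrays alone. Its intensity there was 419, 374 and 408, against 88.8, 90.5 and 89.0 on parental arrays and 89.7, 88.8 and 98.6 on inhibitor arrays. Parental and inhibitor arrays thus lay around the background stand-in, well apart from the resistant arrays. The changes are given as bounds, with each dim array at the higher of its own value and that stand-in: SLC2A3 was at least 4.42-fold higher in resistant than in parental cells (adjusted p = 2.32e-14) and at least 4.30-fold lower in inhibitor than in resistant cells (adjusted p = 7.14e-14). In RNA of a whole culture, a change of level in every cell and a change in the number of cells with the transcript cannot be told apart. SLC2A1 moved differently. It measured 920, 975 and 870 on parental, 1019, 1087 and 1042 on resistant, and 1630, 1024 and 1543 on inhibitor arrays. Inhibitor replicate 2 fell among the resistant arrays, while the other inhibitor arrays lay well above them. SLC2A1 rose in inhibitor against parental cells by 0.57 ± 0.14 (1.49-fold, adjusted p = 0.00831), which was no longer called without inhibitor replicate 1 (adjusted p = 0.0612) or with background subtracted (0.119). Against resistant cells the difference of 0.39 ± 0.14 was not called (adjusted p = 0.0748), but it was without inhibitor replicate 2 (0.60, adjusted p = 7.09e-05).

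**Figure D2:**
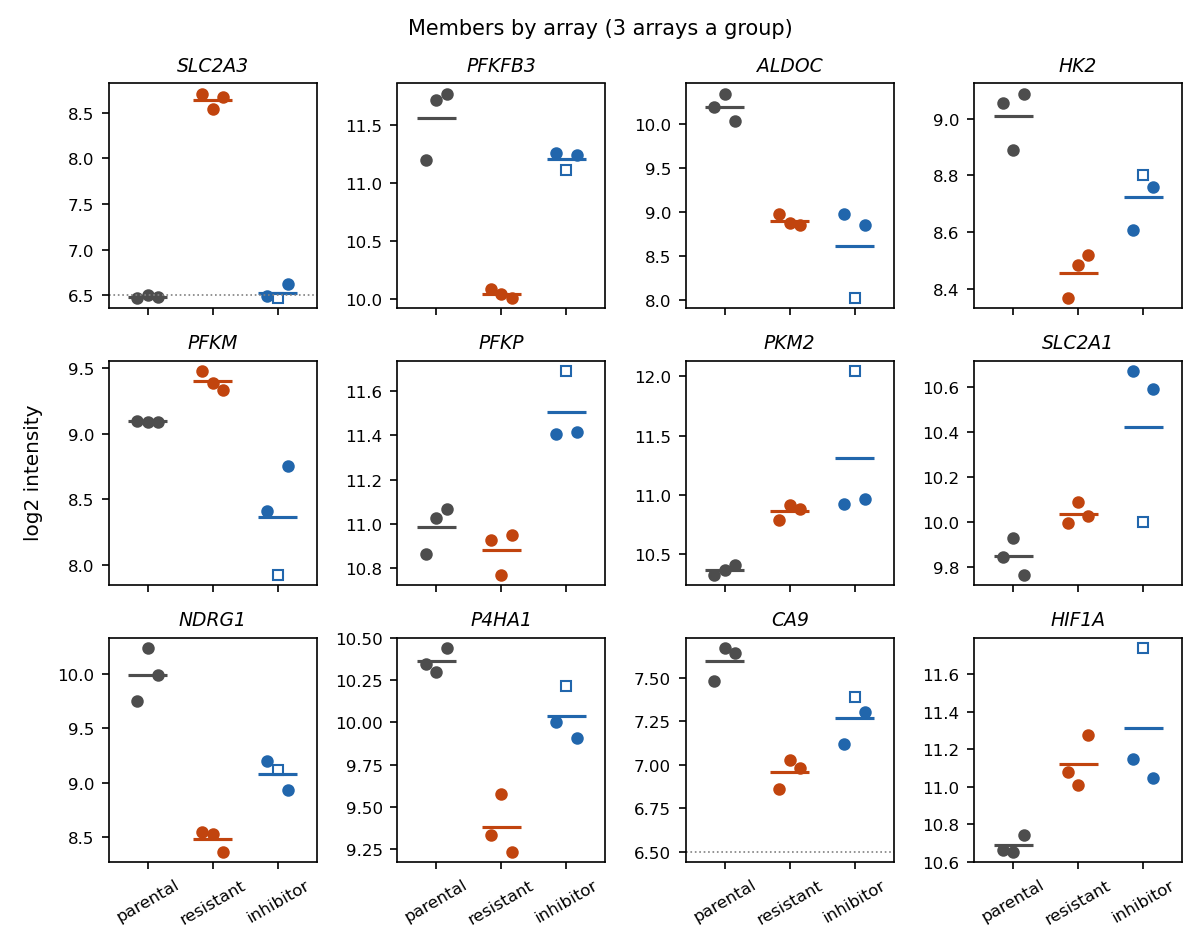
Log2 intensity of 12 of the 35 genes on each array (points), with the mean of the group as a line; each panel has its own axis. The open square is inhibitor replicate 2, and the dotted line, where it is in range, is the stand-in for background. SLC2A3 is above background on the resistant arrays, PFKFB3 and NDRG1 are lowest on the resistant arrays, and SLC2A1, PKM2, HIF1A and ALDOC have inhibitor replicate 2 apart from the rest of its group.

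Of the 15 glycolytic enzymes, 4 fell and none rose in resistant against parental cells by the limma test (1, PKM2, was higher at an unadjusted p under 0.05). The 4 were HK2, PGK1 and the aldolases ALDOA and ALDOC, which split the sugar bisphosphate into triose phosphates. From resistant to inhibitor cells 1 enzyme rose and 1 fell, and in inhibitor against parental cells 2 rose and 6 fell. The enzymes called were 26.7%, 13.3% and 53.3% of the 15, beside 37.2%, 32.0% and 27.4% of genes above background. The median change of the 15 enzymes was -0.07, 0.01 and -0.03 in the 3 comparisons. ALDOC, an isoform best known from brain, measured 1174, 1304 and 1051 on parental arrays and 505, 471 and 462 on resistant arrays. The inhibitor arrays read 504, 262 and 462, with replicate 2 the lowest of all 9. ALDOC fell by 1.29 ± 0.18 on the log2 scale in resistant (2.45-fold lower, adjusted p = 1.72e-05) and by 1.57 ± 0.18 in inhibitor cells against parental cells (adjusted p = 2.68e-06); without inhibitor replicate 2 the latter change was -1.28. ALDOA, the ubiquitous aldolase, went from 4154 ± 358 (SD, n = 3) in parental cells to 2781 ± 316 in resistant and 2778 ± 262 in inhibitor cells. Its arrays were 3741, 4349 and 4372, then 2444, 3072 and 2828, then 2873, 2979 and 2482. All 6 arrays of resistant and inhibitor cells were below all parental arrays, with a log2 change of -0.58 ± 0.10 in each comparison with parental cells (adjusted p = 0.000225 for resistant and 0.000369 for inhibitor cells).

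HK2, the inducible hexokinase that traps glucose as its phosphate, measured 532, 474 and 544 on parental, 331, 358 and 367 on resistant, and 390, 446 and 434 on inhibitor arrays. The 3 groups did not overlap, with inhibitor cells between the others. The fall in resistant cells was 0.55 ± 0.11 on the log2 scale (adjusted p = 0.000701), while inhibitor cells were not called against resistant (0.27, adjusted p = 0.107) or parental cells (-0.29, adjusted p = 0.0892; 0.0285 without inhibitor replicate 2). PGK1, the first enzyme of the pathway that yields ATP, fell in resistant (-0.37 ± 0.08, adjusted p = 0.00108) and inhibitor cells (-0.35 ± 0.08, adjusted p = 0.00304; 0.0592 with background subtracted) against parental cells, from 6938 ± 822 to 5338 ± 163 and 5437 ± 241. GPI, which converts glucose 6-phosphate to fructose 6-phosphate, and ENO2, the enolase typical of neurons, fell in inhibitor against parental cells by 0.37 ± 0.11 (adjusted p = 0.0336) and 0.31 ± 0.08 (adjusted p = 0.0129) on the log2 scale. The call of ENO2 was lost without parental replicate 2 or inhibitor replicate 1 (adjusted p = 0.0699 and 0.0681), and that of GPI without any one of 6 arrays, the 3 parental arrays, resistant replicate 3 and inhibitor replicates 1 and 3 (adjusted p = 0.0537 to 0.156). In resistant cells GPI (-0.24, adjusted p = 0.164) and ENO2 (-0.22, adjusted p = 0.0635; 0.0251 without inhibitor replicate 2) were below all parental arrays without passing the test.

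Phosphofructokinase, the committed step, is built from a muscle (PFKM), a liver (PFKL) and a platelet (PFKP) subunit. PFKM measured 548, 546 and 545 on parental, 713, 668 and 646 on resistant, and 340, 243 and 433 on inhibitor arrays. The groups did not overlap; PFKM fell in inhibitor against resistant cells by 1.03 ± 0.15 on the log2 scale (2.05-fold lower, adjusted p = 5.06e-05) and against parental cells by 0.73 ± 0.15 (adjusted p = 0.00203; 0.0976 with background subtracted). PFKP measured 1862, 2089 and 2148 on parental, 1946, 1747 and 1979 on resistant, and 2714, 3308 and 2731 on inhibitor arrays. It rose in inhibitor against resistant cells by 0.62 ± 0.10 (adjusted p = 0.000188) and against parental cells by 0.52 ± 0.10 (adjusted p = 0.00134). The log2 ratio of PFKP to PFKM, relative to its mean on parental arrays, was 1.10, 1.87 and 0.76 on the inhibitor arrays and -0.45, -0.51 and -0.28 on the resistant arrays; inhibitor replicate 2 held the highest PFKP and the lowest PFKM value. Without that array the change of PFKM against parental cells was -0.51 (adjusted p = 0.00135), the changes against resistant cells were -0.82 for PFKM and 0.53 for PFKP (adjusted p = 4.18e-06 and 0.000154), and the difference of PFKM in resistant against parental cells (0.31, adjusted p = 0.2 with all arrays) was called (adjusted p = 0.0218). PFKL stayed between 153 and 180 on all arrays, and its changes were not called (-0.04, 0.04 and 0.00). It was dim, so remaining background understates its changes. With background subtracted they were -0.08, 0.07 and -0.004 and again not called.

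Pyruvate kinase is listed as PKM2, an older symbol of the gene PKM; 1 row stands for the gene, so the M1 and M2 splice forms were not told apart. It measured 1282, 1321 and 1359 on parental, 1763, 1934 and 1881 on resistant, and 1945, 4231 and 1994 on inhibitor arrays. The value of inhibitor replicate 2 was the largest deviation of any of the 35 genes on any array, 1.10 log2 units from the rest of its group. PKM2 rose in inhibitor against parental cells by 0.94 ± 0.20 (adjusted p = 0.00187), and by 0.58 without that array (adjusted p = 4.79e-05); with background subtracted the call was lost (adjusted p = 0.126). Although the resistant and parental arrays did not overlap, the difference of 0.49 ± 0.20 was not called (adjusted p = 0.0899); with inhibitor replicate 2 left out of the common estimate of spread it was (adjusted p = 4.31e-05). Inhibitor against resistant cells gave 0.45 ± 0.20 (adjusted p = 0.138), but 0.08 without replicate 2; leaving out inhibitor replicate 1 or 3 instead gave an adjusted p of 0.032 and 0.0408.

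The remaining enzymes were not called in any comparison. HK1 (constitutive hexokinase), TPI1 (triosephosphate isomerase), GAPDH, PGAM1 (phosphoglycerate mutase) and ENO1 (the widespread enolase) had log2 changes between -0.08 and 0.18. Their intervals were narrow for the bright genes: the 95% interval of the change from parental to resistant cells was -0.19 to 0.06 for GAPDH, -0.10 to 0.15 for ENO1 and -0.15 to 0.12 for TPI1. For HK1 it was wider (-0.14 to 0.33), and parental replicate 1, at 2304, lay below the others of its group (3188 and 3326). GAPDH, ENO1, PGK1, LDHA and LDHB had at least 1 group mean over 5549 (99th percentile of the whole table), a range in which bright signals may be compressed.

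**Figure D3:**
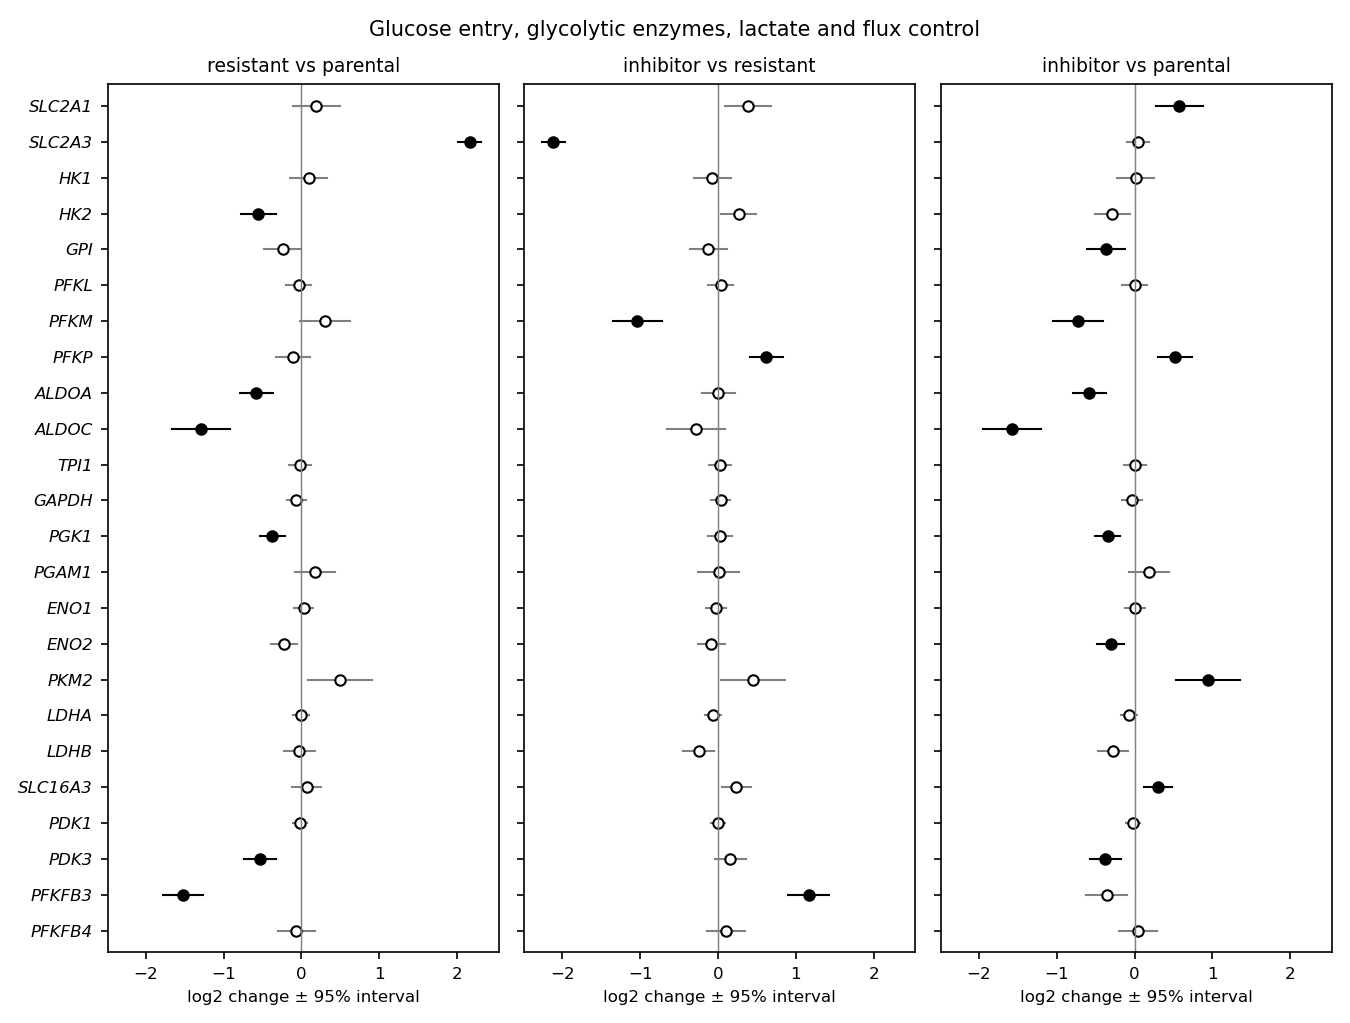
Log2 change with its 95% interval for the 24 genes of glucose entry, glycolysis, lactate and flux control in the 3 comparisons (panels); filled points passed an adjusted p of 0.05. SLC2A3 and PFKFB3 move in opposite directions in the first 2 panels, while ALDOA, ALDOC and PGK1 are lower than parental in resistant and inhibitor cells; between those groups ALDOA and PGK1 are near 0, and ALDOC is at -0.28 with an interval that includes 0.

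Of the 3 genes of lactate formation and export, only SLC16A3 was called, in inhibitor against parental cells. LDHA, which favours lactate formation, gave 9661 ± 201 in parental, 9658 ± 182 in resistant and 9208 ± 373 in inhibitor cells and was not called (0.00, -0.07 and -0.07). LDHB, which favours the reverse reaction, was at 6399, 4978 and 5894 on parental, 5718, 5557 and 5592 on resistant, and 4453, 5501 and 4327 on inhibitor arrays. Its differences of inhibitor cells from resistant (-0.25, adjusted p = 0.0791) and parental cells (-0.28, adjusted p = 0.0557) were not called with all arrays and were without inhibitor replicate 2 (adjusted p = 0.00232 and 0.00127); that from parental cells was also called without parental replicate 2, the lowest of its group (adjusted p = 0.0117). SLC16A3, the lactate exporter of glycolytic cells, rose in inhibitor against parental cells from 3374 ± 373 to 4140 ± 100 (0.30 ± 0.09, adjusted p = 0.0244), which was no longer called without parental replicate 1 or 2 or inhibitor replicate 1 or 3 (adjusted p = 0.0639 to 0.127) or with background subtracted (0.114); inhibitor against resistant cells gave 0.23 (adjusted p = 0.0787).

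Among the flux-controlling kinases, PFKFB3 showed a fall in resistant cells close in size to that of NDRG1, described with the hypoxia effectors. PFKFB3 makes fructose 2,6-bisphosphate, the strongest activator of phosphofructokinase. It measured 2356, 3368 and 3504 on parental arrays, 1083, 1055 and 1031 on resistant arrays and 2456, 2222 and 2425 on inhibitor arrays. The resistant arrays lay far below all others, and parental and inhibitor arrays overlapped. PFKFB3 fell in resistant cells by 1.52 ± 0.12 on the log2 scale (2.87-fold lower, adjusted p = 1.7e-08) and was 1.16 ± 0.12 higher in inhibitor than in resistant cells (2.24-fold, adjusted p = 1.01e-06). Inhibitor against parental cells gave -0.36 ± 0.12, which was not called (adjusted p = 0.0642) with all arrays; it was without parental replicate 1, the lowest of its group (adjusted p = 0.00139), with array weights (0.0242) and with dim genes left out (0.0448). Its relative PFKFB4 was not called in any comparison and ranged from 159 to 227; without inhibitor replicate 2, which held the lowest value, it was 0.28 higher in inhibitor than in resistant cells (adjusted p = 0.0273). PDK3, which switches off pyruvate dehydrogenase, measured 337, 322 and 351 on parental, 223, 244 and 231 on resistant, and 262, 234 and 284 on inhibitor arrays. The parental arrays were above all others, which overlapped. PDK3 was lower than parental in resistant (-0.54 ± 0.10, adjusted p = 0.000327) and inhibitor cells (-0.38 ± 0.10, adjusted p = 0.0105; 0.0504 without parental replicate 3). PDK1, the form most linked to hypoxia, read 90.1 to 97.0 on all arrays, at the edge of background, so a change in it was not detectable here.

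Of the 8 hypoxia-inducible effectors, 2 rose and 3 fell in resistant against parental cells. From resistant to inhibitor cells 4 rose and 2 fell, and in inhibitor against parental cells 3 fell. Over all genes 10.3% rose and 10.2% fell in the first comparison, 8.71% and 8.85% in the second, and 7.15% and 7.82% in the third. Called in total were 62.5%, 75% and 37.5% of the 8, beside 37.2%, 32.0% and 27.4% of genes above background. The median change of the 8 was -0.19, 0.19 and -0.21. NDRG1, a protein induced by stress and differentiation, measured 862, 1208 and 1014 on parental, 374, 370 and 330 on resistant, and 588, 554 and 489 on inhibitor arrays. The 3 groups did not overlap, and resistant cells were lowest. NDRG1 fell by 1.51 ± 0.13 on the log2 scale from parental to resistant cells (2.85-fold lower, adjusted p = 3.2e-08), was 0.60 ± 0.13 higher in inhibitor than in resistant cells (adjusted p = 0.00233) and stayed below parental in inhibitor cells (-0.91 ± 0.13, 1.88-fold lower, adjusted p = 4.5e-05). P4HA1, the catalytic subunit of collagen prolyl 4-hydroxylase, measured 1304, 1257 and 1389 on parental, 645, 763 and 603 on resistant, and 1026, 1187 and 960 on inhibitor arrays. P4HA1 fell in resistant cells by 0.98 ± 0.12 on the log2 scale (1.97-fold lower, adjusted p = 4.47e-06) and rose in inhibitor against resistant cells by 0.66 ± 0.12 (adjusted p = 0.000532); every inhibitor array was below every parental array, with a change of -0.32 that was not called (adjusted p = 0.0912; 0.0102 without inhibitor replicate 2). CA9, the membrane carbonic anhydrase that is a classical marker of hypoxia, was dim: 178, 204 and 200 on parental, 116, 130 and 126 on resistant, and 139, 168 and 158 on inhibitor arrays. Its groups did not overlap either. CA9 fell by 0.64 ± 0.08 on the log2 scale in resistant cells (adjusted p = 6.27e-06), rose by 0.31 ± 0.08 from resistant to inhibitor cells (adjusted p = 0.0102; 0.0734 without resistant replicate 1) and was below parental there (-0.33 ± 0.08, adjusted p = 0.00811; 0.0612 without inhibitor replicate 1). With the olfactory background subtracted the change of CA9 in resistant cells was -1.49 (adjusted p = 0.00541), and its other 2 changes were no longer called (adjusted p = 0.0638 against resistant and 0.144 against parental cells).

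ADM and VEGFA moved the other way. ADM, the precursor of the vasodilator peptide adrenomedullin, measured 1959, 1971 and 1907 on parental, 2710, 2659 and 2945 on resistant, and 2483, 2082 and 2284 on inhibitor arrays. The groups did not overlap. ADM rose in resistant cells by 0.51 ± 0.09 (1.42-fold, adjusted p = 0.000381); the fall of 0.28 ± 0.09 on the log2 scale from resistant to inhibitor cells was marginal (adjusted p = 0.0429) and was lost without any one array other than parental replicate 1 and inhibitor replicate 1 (adjusted p = 0.0542 to 0.18), with background subtracted (0.0565) and with array weights (0.0639). Inhibitor against parental cells gave 0.23 (adjusted p = 0.126; 0.0196 without inhibitor replicate 2). VEGFA, the main growth factor of blood vessels, measured 129, 136 and 138 on parental, 186, 177 and 155 on resistant, and 157, 117 and 179 on inhibitor arrays. It rose in resistant cells by 0.36 ± 0.11 (1.28-fold, adjusted p = 0.026), which was no longer called without any one of the parental arrays or resistant replicate 1 or 2 (adjusted p = 0.0608 to 0.13) or with background subtracted (0.152). The call of VEGFA was also lost when eBayes was run without its trend option (0.104). With inhibitor replicate 2 left out of the common estimate of spread, it held (adjusted p = 0.000456). The inhibitor arrays overlapped the resistant arrays, replicate 2 being the lowest of all 9 arrays, and were not called against parental cells (0.15) unless that array was left out (0.32, adjusted p = 0.00662); against resistant cells (-0.21) they were called only without inhibitor replicate 3 (adjusted p = 0.0292).

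The mitophagy receptor BNIP3 measured 2266, 2153 and 2074 on parental, 1628, 2076 and 1898 on resistant, and 1418, 1230 and 1518 on inhibitor arrays. Inhibitor cells were lowest, with a fall of 0.64 ± 0.11 on the log2 scale against parental (1.56-fold lower, adjusted p = 0.000362) and of 0.43 ± 0.11 against resistant cells (adjusted p = 0.0109; 0.0858 without resistant replicate 2 and 0.0688 with background subtracted), while the resistant arrays overlapped the parental arrays (-0.22, adjusted p = 0.214). Its relative BNIP3L was not called and ranged from 560 to 710. ANKRD37, a small ankyrin repeat protein induced through HIF, was 113 to 119 on resistant, 124 to 161 on inhibitor and 123 to 137 on parental arrays. It rose in inhibitor against resistant cells by 0.32 ± 0.08 (adjusted p = 0.00694), a call lost once the olfactory background was subtracted (adjusted p = 0.0891), and inhibitor against parental cells gave 0.18 (adjusted p = 0.175; 0.0029 without inhibitor replicate 2).

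**Figure D4:**
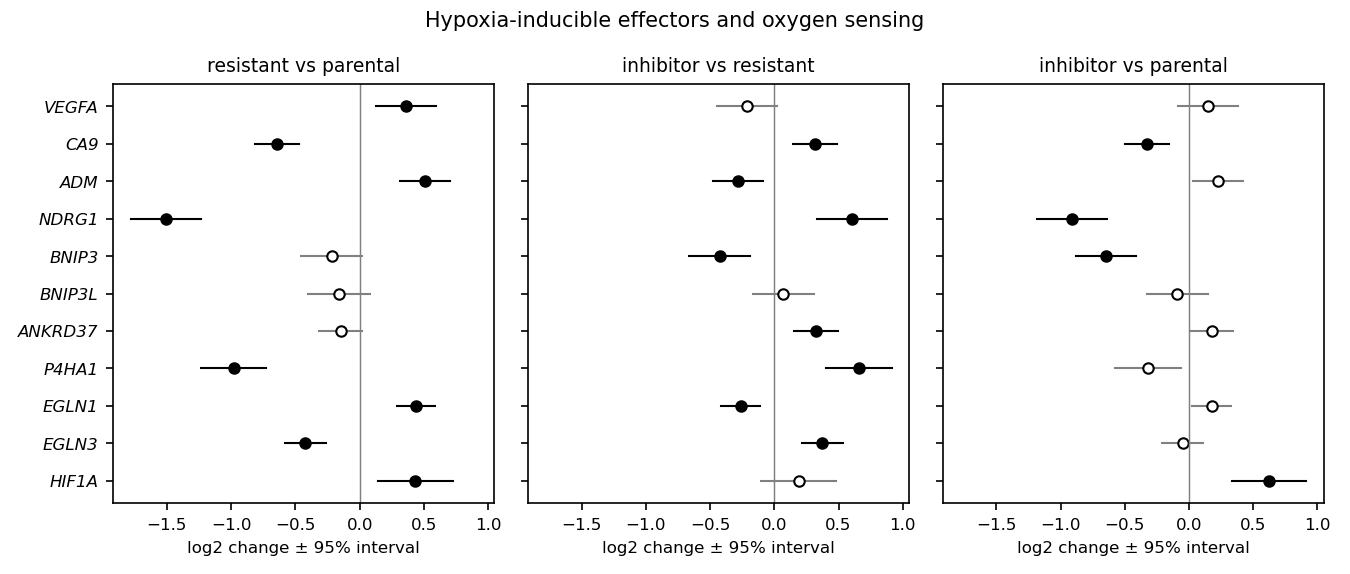
Log2 change with its 95% interval for the 8 hypoxia-inducible effectors and the 3 genes of oxygen sensing in the 3 comparisons (panels); filled points passed an adjusted p of 0.05. In resistant against parental cells NDRG1, P4HA1, CA9 and EGLN3 are lower and ADM, EGLN1, HIF1A and VEGFA higher.

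EGLN1 and EGLN3, the prolyl hydroxylases of the set, moved in opposite directions. EGLN1, the main oxygen sensor in most cells, was at 150 ± 3.39 in parental, 204 ± 3.95 in resistant and 170 ± 8.39 in inhibitor cells. It rose in resistant cells by 0.44 ± 0.07 (adjusted p = 0.000106) and fell from resistant to inhibitor cells by 0.26 ± 0.07 on the log2 scale (adjusted p = 0.0133), a call that was lost without resistant replicate 2 (adjusted p = 0.0539). Every inhibitor array of EGLN1 was above every parental array, with a change of 0.18 that was not called (adjusted p = 0.119). That change was called with background subtracted (0.0307), with array weights (0.0444) and without the eBayes trend option (0.0219). EGLN3, which is itself strongly induced through HIF, was at 158 ± 14.1, 118 ± 5.61 and 152 ± 9.92 in parental, resistant and inhibitor cells. EGLN3 fell in resistant cells (-0.42 ± 0.08, adjusted p = 0.000303) and rose from resistant to inhibitor cells (0.37 ± 0.08, adjusted p = 0.00133); parental and inhibitor arrays overlapped (-0.05). HIF1A measured 1623, 1611 and 1717 on parental, 2163, 2062 and 2478 on resistant, and 2268, 3417 and 2114 on inhibitor arrays. All 6 arrays of resistant and inhibitor cells were above all parental arrays, with inhibitor replicate 2 the highest. HIF1A rose by 0.43 ± 0.14 in resistant (adjusted p = 0.0312; 0.152 with background subtracted) and by 0.62 ± 0.14 in inhibitor cells (adjusted p = 0.00346; 0.11 with background subtracted) against parental cells. The change in inhibitor against parental cells was 0.41 without inhibitor replicate 2 (adjusted p = 0.00306). That in resistant cells lost its call without any one of the parental arrays or resistant replicate 1 or 3 (adjusted p = 0.0621 to 0.156). The call in resistant cells was also lost when eBayes was run without its trend option (0.0917) and with cyclic loess (0.0575). With inhibitor replicate 2 left out of the common estimate of spread, this call held (adjusted p = 0.000321). Inhibitor against resistant cells gave 0.19 ± 0.14, which was not called (adjusted p = 0.45), and -0.02 without inhibitor replicate 2.

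Beyond the set, 113 of 114 further genes of the same pathways, in 9 lists, were measured (AK4 was not matched). In resistant against parental cells 17 rose and 22 fell (34.5%), in inhibitor against resistant cells 20 rose and 25 fell (39.8%), and in inhibitor against parental cells 12 rose and 22 fell (30.1%). Over all genes 20.5%, 17.6% and 15.0% were called in these comparisons, and 37.2%, 32.0% and 27.4% of those above background. The median change of the 113 was 0.00, -0.03 and -0.03, and the medians of the single lists lay between -0.23 and 0.10. Of the 5 gluconeogenic genes, 1 rose and 2 fell in resistant cells. FBP1, fructose-1,6-bisphosphatase, which runs against phosphofructokinase, had the largest fall among these 113 genes in that comparison. FBP1 measured 1672, 2100 and 1602 on parental, 156, 173 and 168 on resistant, and 895, 808 and 866 on inhibitor arrays. The groups were far apart: FBP1 fell by 3.43 ± 0.12 on the log2 scale in resistant cells (adjusted p = 8.62e-14) and was 2.37 ± 0.12 higher in inhibitor than in resistant cells (adjusted p = 3.43e-11), and still below parental (-1.06 ± 0.12, adjusted p = 3.03e-06). PCK2, the mitochondrial phosphoenolpyruvate carboxykinase, fell by 1.17 in resistant cells on the log2 scale and rose by 0.67 from resistant to inhibitor cells.

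Of 11 other glucose transporters, 1 rose and 2 fell in resistant cells, and 2 rose and 3 fell from resistant to inhibitor cells. SLC2A6 rose from 170 ± 10.3 to 390 ± 20.4 in resistant cells (1.20 ± 0.10, adjusted p = 2.37e-08) and was 162 ± 22.2 in inhibitor cells. SLC2A10 went the other way, from 886 ± 117 to 352 ± 24.5 (-1.32 ± 0.12, adjusted p = 1.09e-07), with 670 ± 61.5 in inhibitor cells. Of 19 other glycolytic genes, many of them tissue-restricted isoforms, 1 rose and 1 fell in resistant cells; HKDC1, a putative further hexokinase, went from 403 ± 19.0 in parental to 704 ± 30.1 in resistant and 394 ± 21.6 in inhibitor cells (0.81 and -0.84). Of 8 glycogen genes, 2 rose and 3 fell in resistant cells, and 2 rose and 2 fell from resistant to inhibitor cells. Glycogen phosphorylase PYGL, which releases glucose from glycogen, was at 981 ± 80.3, 537 ± 43.3 and 1413 ± 209 in parental, resistant and inhibitor cells (-0.87 and 1.39). The branching enzyme GBE1 was at 264 ± 20.6, 426 ± 31.1 and 251 ± 1.23 (0.69 and -0.76).

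**Figure D5:**
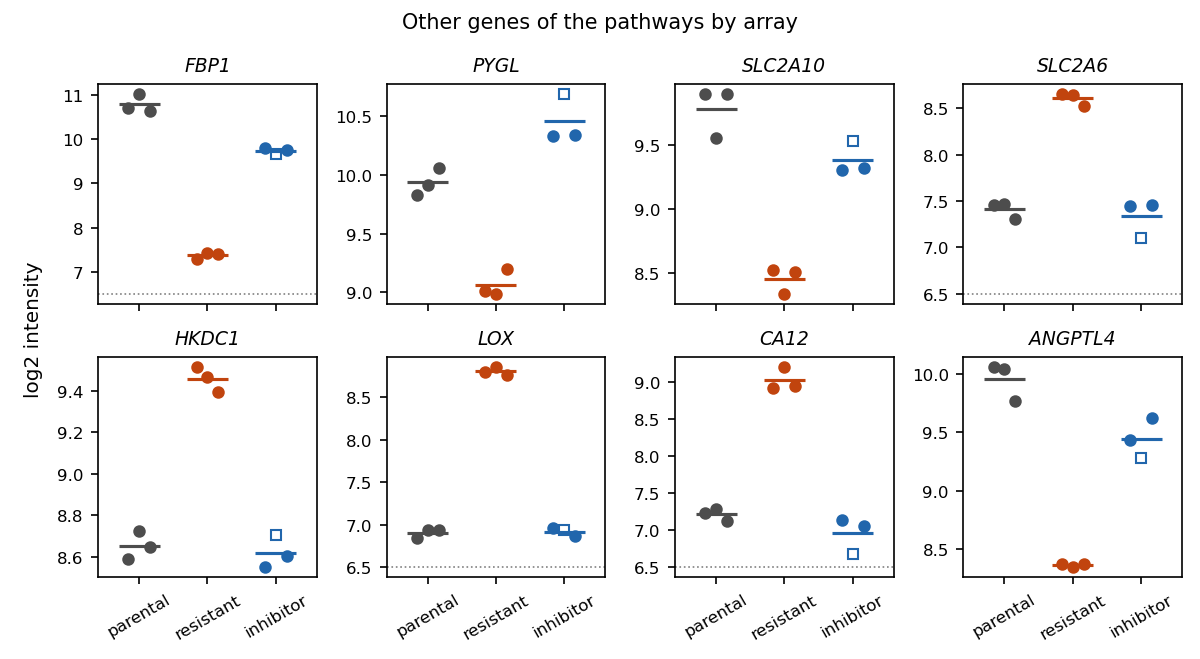
Log2 intensity on each array (points) of 8 further genes of the pathways, with the group mean as a line; each panel has its own axis. The open square is inhibitor replicate 2, and the dotted line, where it is in range, is the stand-in for background. FBP1, PYGL, SLC2A10 and ANGPTL4 are lowest on the resistant arrays, and SLC2A6, HKDC1, LOX and CA12 are highest there.

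Of 16 genes of pyruvate and lactate handling, 2 rose and 3 fell in resistant cells and 1 rose and 5 fell from resistant to inhibitor cells. Components of the pyruvate dehydrogenase complex moved in opposite directions: PDHX fell by 0.76 on the log2 scale in resistant cells, while PDHB (0.43) and PDHA1 (0.30) rose, and the latter genes fell from resistant to inhibitor cells (-0.57 and -0.41). Of 8 pentose phosphate genes, 1 rose and 1 fell in resistant cells, and 1 rose and 3 fell from resistant to inhibitor cells, among them TKT, transketolase (-0.64 ± 0.12, adjusted p = 0.000446).

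Of 25 further HIF targets measured, 7 rose and 7 fell in resistant cells, and 7 rose and 7 fell from resistant to inhibitor cells. In inhibitor against parental cells 4 rose and 7 fell. Of genes above background 37.2%, 32.0% and 27.4% were called in these comparisons, either way. LOX, the collagen crosslinking enzyme, was at 119 ± 4.33, 449 ± 15.0 and 121 ± 3.87 in parental, resistant and inhibitor cells (1.91 and -1.89). The carbonic anhydrase CA12 was at 148 ± 8.35, 521 ± 58.0 and 125 ± 20.3 (1.81 and -2.07), against the fall of CA9 in resistant cells. ANGPTL4, an inhibitor of lipoprotein lipase, fell from 996 ± 110 to 330 ± 3.36 in resistant cells (-1.59) and was 700 ± 84.2 in inhibitor cells. Of 13 genes of the HIF pathway itself, ARNT and EPAS1 fell in resistant cells; EPAS1, the other main alpha subunit, went from 832 ± 52.8 to 541 ± 41.0 (-0.62 ± 0.11, adjusted p = 0.000317) while HIF1A rose, and it was 717 ± 38.1 in inhibitor cells. VHL was higher (0.43) and ARNT2 lower (-0.65) in inhibitor than in resistant cells. EGLN2, a further prolyl hydroxylase and brighter than EGLN1 and EGLN3, was at 1731 ± 89.1, 1987 ± 91.7 and 1532 ± 252 in parental, resistant and inhibitor cells. It was not called in resistant against parental cells and fell from resistant to inhibitor cells (-0.39 ± 0.12, adjusted p = 0.0252). Inhibitor replicate 2 was the lowest of its group (1714, 1245 and 1637). Of the 8 genes of the glucose and MYC response, 2 rose and 1 fell in resistant cells; MYC, a transcription factor that activates many glycolytic genes, was at 307 ± 19.2, 731 ± 54.6 and 369 ± 43.3 (1.25 and -0.99).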

How the data were processed

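Total RNA of 9 samples was hybridised to Illumina arrays as biotin-labelled cRNA, per the labels' protocols. The authors deposited a linear intensity for every symbol on every array, with no counts behind it, so precision is set by the number of arrays. From their values the deposited intensities had been quantile-normalized, since after sorting no array departed from the common distribution by more than 0.0178 log2 units. Scanner, software and the handling of multiple probes are not stated in the sources used here.

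Of 34687 rows, 3270 that name only a UniGene cluster and 92 spike-in controls were left out. Older symbols were updated with RefSeq's gene table (GRCh38.p14): current symbols matched 17757 rows, gene numbers 2669 and older symbols 3303, and 7596 rows kept their name. The brightest row stood for each of the 30580 genes, 728 of which had more than 1. Log2 intensities (a floor of 16 changed no value) were fitted in limma 3.58.1 (R 4.3.3) with group means as coefficients, eBayes with its trend option, all 9 arrays together, and Benjamini-Hochberg adjustment over all 30580 genes; calls needed an adjusted p under 0.05. The fit was tested on simulated data with known changes beforehand.

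The 35 genes, the further lists and the tests were chosen with earlier results of these data known, so a pattern shown here is not independent support for them. All 35 are named, and of each further list up to 4 called genes with the largest change in each comparison whose brighter group was above background could be named. Some genes that this rule takes are left unreported. Array by array values are given for those of the 35 called with a change of at least 0.5 log2 units and for some others; the rest, and nearly all further genes, are given as means or ranges. Same-numbered arrays of different groups did not deviate together (0 of 9 pairs correlated above 0.1, r from -0.198 to 0.0293), so the main fit had no replicate block. Arrays with different numbers reached an r of 0.228. These correlations cannot show whether a number marks a shared culture or batch, which the sources used here do not give. Alternatives were the variance prior, a replicate block, pairwise fits, array weights, a filter on dim genes, averaged rows, UniGene rows kept, median centring, cyclic loess, background subtraction and each array left out. Promoter windows came from RefSeq (GRCh38.p14). Figures were drawn with matplotlib 3.10.9.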

Additional observations from a re-analysis of the deposited data

How the results depend on the processing

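Of the 42 calls made for the 35 genes in the 3 comparisons, 25 held under all 19 alternatives and 17 were lost under at least 1. Another 18 gene comparisons without a call gained a call under at least 1. No change called in the main fit or in the alternative reversed its direction. Some changes called in neither did, such as ALDOC in inhibitor against resistant cells (-0.28, and 0.01 without inhibitor replicate 2). The 5 genes called higher in resistant against parental cells became 3 when eBayes was run without its trend option, 3 with the olfactory background subtracted, and 3 to 7 when single arrays were left out. The 5 genes called lower in inhibitor against resistant cells became 3 with background subtracted, and 2 to 5 with single arrays left out (2 without resistant replicate 2). The 5 genes called higher in inhibitor against parental cells became 8 with array weights, 2 with background subtracted, and 3 to 8 with single arrays left out (8 without inhibitor replicate 2). With background subtracted the count over all genes in inhibitor against resistant cells fell from 5367 to 3560. The causes were not tested, beyond the lower weight of inhibitor replicate 2 among the array weights (0.386, others 0.872 to 1.38).

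With the replicate number as a replicate block, 5920, 4936 and 4220 genes were called in the 3 comparisons in the order of the report, and 5 higher and 10 lower, 7 higher and 4 lower, and 5 higher and 10 lower among the 35; the fall of ADM from resistant to inhibitor cells lost its call (adjusted p = 0.0726) and no other call among the 35 changed. Signal near background limits SLC2A3, PDK1, CA9, EGLN3, ANKRD37, VEGFA, EGLN1, PFKL and PFKFB4. With background subtracted, the change in resistant against parental cells went from 0.36 to 0.82 for VEGFA and from 0.44 to 0.87 for EGLN1.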
